A study of Rattus norvegicus with 29 samples.

Results

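The 10 genes described here, Snx10, Coro6, Cryl1, Nrep, Nox4, Sema3c, Mmd, Lrtm2, Slc25a30 and Wsb1, are rat liver genes that differed strongly or day-dependently under 2,2,5,7,8-pentamethyl-6-chromanol (PMCol) and that belong to no detoxification pathway. They are 10 of 14324 genes that the array measured under a single symbol, and each was read by 1 transcript cluster, the set of probes that reports 1 gene locus. They were chosen by their log2 changes in these same comparisons, among doses and between days. Their own values are therefore given as a description, with standard errors or confidence intervals, and p-values are printed for other genes only. Where one of the 10 is said to pass or not to pass a threshold, this too is a description and carries no evidence.

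PMCol is a chromanol antioxidant with the ring system of vitamin E and no phytyl side chain. Male Sprague-Dawley rats (Crl:CD, 6 to 7 weeks old) received daily doses by oral gavage in aqueous methylcellulose, and RNA of the left liver lobe was hybridised to 1 array per animal. At day 8, after 7 doses, there were 6 rats given 2000 mg/kg PMCol and 6 given vehicle. At day 29, after 28 doses, there were 6 given vehicle, 6 given 200 mg/kg and 5 given 2000 mg/kg. Samples of 200 mg/kg at day 8 were not analysed here.

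As background, the genes have unrelated tasks. Sorting nexins bind phosphoinositides on endosomes and steer membrane cargo, and coronins regulate the branching and turnover of actin filaments. Cryl1 encodes L-gulonate 3-dehydrogenase of the glucuronate pathway, Nox4 encodes an NADPH oxidase that releases hydrogen peroxide, and Slc25a30 encodes a carrier of the inner mitochondrial membrane. Sema3c is a secreted guidance ligand, Mmd and Lrtm2 are membrane proteins, Nrep is a small intracellular protein tied to TGF-beta in mouse work, and Wsb1 is a substrate receptor of a ubiquitin ligase.

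Sequences just upstream of a gene's start are shown for 4 of the genes, the pair with the largest increases (Snx10 and Coro6) and the pair that was higher mainly at day 29 (Mmd and Sema3c). The windows run from 250 bases before to 50 after the annotated start in RefSeq's GRCr8 assembly, printed 5′ to 3′ on the gene's strand. They lie at chr4:81943073-81943372 on the plus strand for Snx10, chr10:62810951-62811250 on the plus strand for Coro6, chr10:75570203-75570502 on the plus strand for Mmd and chr4:18699578-18699877 on the minus strand for Sema3c. Capitals mark matches to the motifs named after the sequences.
Snx10: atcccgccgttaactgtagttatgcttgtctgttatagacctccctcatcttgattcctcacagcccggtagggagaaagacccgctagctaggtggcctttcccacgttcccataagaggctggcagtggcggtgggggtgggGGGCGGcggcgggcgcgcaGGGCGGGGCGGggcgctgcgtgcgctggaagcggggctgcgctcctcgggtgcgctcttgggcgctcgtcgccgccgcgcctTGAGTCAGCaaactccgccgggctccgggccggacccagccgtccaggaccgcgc
Coro6: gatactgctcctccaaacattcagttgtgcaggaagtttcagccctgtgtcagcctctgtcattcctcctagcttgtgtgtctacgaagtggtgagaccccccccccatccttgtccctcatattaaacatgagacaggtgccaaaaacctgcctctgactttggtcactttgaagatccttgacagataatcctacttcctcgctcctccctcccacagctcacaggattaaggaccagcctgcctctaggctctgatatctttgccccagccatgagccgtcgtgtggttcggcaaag
Mmd: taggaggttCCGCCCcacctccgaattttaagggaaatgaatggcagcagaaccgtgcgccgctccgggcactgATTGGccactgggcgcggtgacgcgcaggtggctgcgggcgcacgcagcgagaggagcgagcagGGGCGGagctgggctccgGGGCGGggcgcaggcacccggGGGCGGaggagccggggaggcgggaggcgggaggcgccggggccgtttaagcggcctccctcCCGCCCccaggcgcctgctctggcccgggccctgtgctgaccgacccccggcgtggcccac
Sema3c: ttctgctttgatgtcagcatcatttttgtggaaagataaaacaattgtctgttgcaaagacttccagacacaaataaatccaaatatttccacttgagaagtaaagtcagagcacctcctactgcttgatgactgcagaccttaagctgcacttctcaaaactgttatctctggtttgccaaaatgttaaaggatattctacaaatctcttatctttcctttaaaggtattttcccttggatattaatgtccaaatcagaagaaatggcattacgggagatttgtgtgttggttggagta

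The paired genes did not resemble each other in these windows. G and C made up 69.0% of the Snx10 window against 52.0% for Coro6, and 75.0% of the Mmd window against 36.3% for Sema3c. Of the 10 genes, 9 matched the promoter table, and Slc25a30 did not. The core of the antioxidant response element (TGACNNNGC, both strands), which NRF2 binds, occurred in 0 of the 9 genes' windows by their first annotated start and in 12.2% of 27457 rat promoters of the same length. The AP-1 site TGANTCA occurred in Snx10 alone among the 9, beginning 5 bases before the start, against 7.3% of all promoters. There it extends to TGANTCAGC, a form bound by CNC and small Maf factors, which 1.1% of all promoters held. This longer form was searched after the Snx10 window had been read. The Snx10 match, TGAGTCAGC, differs from the antioxidant response element core only by a G in place of the C. The count of 0 for that core therefore leaves out this close variant. The GC box GGGCGG occurred in 6 of the 9 against 34.9%, and the CCAAT box in 2 against 37.7%. The E-box CACGTG, the TATA box TATAAA, the amino acid response element core TGATGNAA and the nuclear receptor half-site AGGTCA occurred in 0 of the 9, against 6.7%, 14.3%, 3.8% and 15.7% of all promoters. A match is only a match of letters, and a window without one says nothing about a factor.

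The labels do not state the base or centring of the deposited values, which were read here as log2 values. The median of every cluster across the 29 livers is 0, so the values show differences between livers and no expression level. Array medians lay between -0.023 and 0.0287. All 7 measured hepatocyte markers, Alb, Ttr and Cps1 among them, had stored values of at least 8 on the log2 scale in every array, as had Cryl1, Nrep and Wsb1. This was not shown for Snx10, Coro6, Nox4, Sema3c, Mmd, Lrtm2 and Slc25a30. Whether low signal limited the size of their changes was not tested. Animal 1 of the day 29 vehicle group stood apart from its group; without it no member's day 29 change from vehicle moved by more than 0.11 on the log2 scale. Markers of some other cell types moved with treatment and day. With 2000 mg/kg, 23.4% of all genes with a single symbol passed adjusted p under 0.05 in limma at day 8 and 26.0% at day 29. Of 6 neutrophil markers 0 did so on either day, and of 4 cholangiocyte markers 1 rose and 1 fell on each. At day 8, 2 of 5 endothelial, 3 of 9 T, B and NK cell and 2 of 5 erythrocyte markers fell, against 0, 1 and 0 at day 29. Of 16 stellate cell and fibroblast markers, 13 fell and 0 rose with 2000 mg/kg at day 29 (limma, adjusted p under 0.05), and the list's mean per liver ran from -0.46 to -0.23 with 2000 mg/kg against 0.12 to 0.54 with vehicle. Among the 12 markers of Kupffer cells and macrophages, Cd14 rose and the other 11 fell with 2000 mg/kg at day 8, with list means of -0.59 to 0.11 against 0.31 to 1.19 with vehicle. Without treatment, 11 of the 12 were also lower in vehicle livers of day 29 than in those of day 8. In that contrast 3.14% of all genes with a single symbol passed the threshold. The median log2 change of the 12 markers was -1.02, against -0.98 for the treatment at day 8. The count of 11 was 4 to 6 without animal 1, 3, 4, 5 or 6 of the day 29 group. The same held without animal 2, 4 or 6 of the day 8 group. The mean of the day 8 vehicle group, 0.76, thus stood above the means of the other 4 groups, at -0.23 to -0.08. Single livers overlapped, since those of day 29 reached 0.73 with vehicle and 0.46 with 2000 mg/kg, above the lowest day 8 vehicle liver at 0.31. Of the 7 hepatocyte markers, 5 fell with 2000 mg/kg at day 8, with list means of -0.22 to -0.04 against -0.12 to 0.09 with vehicle, and 2 fell at day 29. In RNA of unsorted liver tissue, fewer cells of a type and less RNA per cell cannot be told apart.

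With 2000 mg/kg, Snx10, Coro6, Cryl1, Mmd and Sema3c were higher and Nox4, Nrep, Lrtm2, Wsb1 and Slc25a30 lower than in same-day vehicle livers, at both days. Past the threshold of adjusted p under 0.05 lay 9 of the 10 at day 8, where 18.6% of all 27342 clusters did, and 10 of 10 at day 29, where 21.6% did; Sema3c was the exception at day 8. With 200 mg/kg at day 29 it was 5 of 10, against 2.78% of all clusters. Between 2000 and 200 mg/kg at day 29 it was 7 of 10, against 9.89%. The change from vehicle differed between days for 2 of 10, Mmd and Sema3c, against 0.775%, and vehicle livers of day 29 and day 8 differed for 2 of 10, Lrtm2 and Snx10, against 2.73%. Since these contrasts chose the genes, the counts carry no evidence. The median size of change was 1.64 on the log2 scale for the 10 genes and 0.08 for all clusters at day 8, 1.90 and 0.09 at day 29 with 2000 mg/kg, and 0.78 and 0.05 with 200 mg/kg. Groups did not overlap for 8 of 10 genes at day 8 (11.0% of all clusters), for 10 of 10 at day 29 with 2000 mg/kg (11.4%) and for 3 of 10 with 200 mg/kg (1.51%). The same held for 6 of 10 between the doses (6.12%) and for 2 of 10, Lrtm2 and Slc25a30, between the vehicle groups (1.25%).

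By direction, 4 genes were higher and 5 lower past the threshold at day 8, where 9.32% of all clusters were higher and 9.32% lower. At day 29 with 2000 mg/kg 5 were higher (12.1% of all clusters) and 5 lower (9.55%), and with 200 mg/kg Snx10, Coro6 and Cryl1 were higher (1.37%) and Slc25a30 and Wsb1 lower (1.42%). Between 2000 and 200 mg/kg 4 were higher (6.05%) and 3 lower (3.84%). The change was more positive at day 29 than at day 8 for 2 (0.472%) and more negative for 0 (0.304%), and vehicle livers of day 29 were higher than those of day 8 for Lrtm2 (0.962%) and lower for Snx10 (1.77%). Changes of at least 2-fold were found for 8 genes at day 8 (0.794% of all clusters), for 9 at day 29 with 2000 mg/kg (0.991%), for 4 with 200 mg/kg (0.161%) and for 6 between doses (0.395%). The changes of the 2 days differed by at least 2-fold for 2 genes (0.315%) and the vehicle groups for 1 (0.0914%). Sema3c, at 0.29, and Mmd, at 0.64, were the genes under 2-fold at day 8, and Slc25a30, at -0.95, at day 29.

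**Figure D1:**
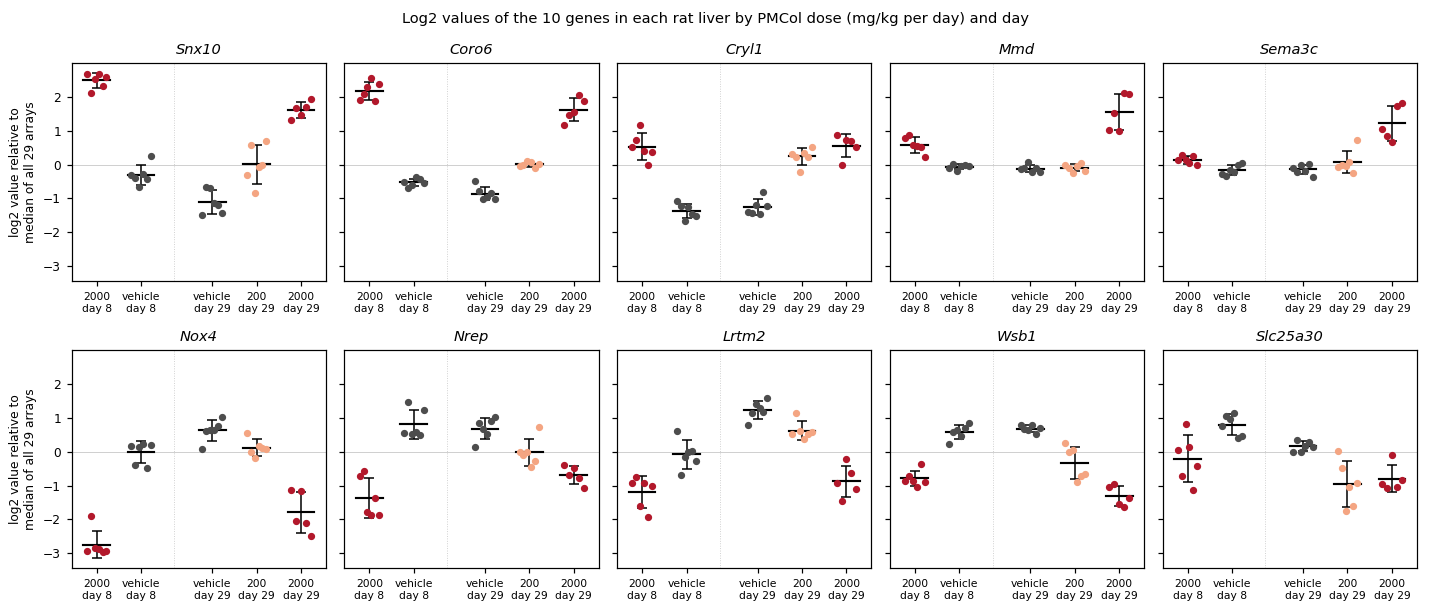
Log2 value of each of the 10 genes (y axis, relative to the gene's median over all 29 arrays) in every liver, by PMCol dose in mg/kg per day and day (x axis). Points are animals, horizontal bars group means and error bars 1 SD (6 animals a group, 5 for 2000 mg/kg at day 29). The upper row holds the 5 genes that were higher with 2000 mg/kg and the lower row the 5 that were lower; Mmd and Sema3c reach their means of 1.55 and 1.22 at day 29 against 0.58 and 0.13 at day 8.

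The 10 genes differed in how much of the high-dose change 200 mg/kg gave. The 200 mg/kg change as a percentage of the 2000 mg/kg change at day 29, both on the log2 scale, was 82.4% for Cryl1 and 116.8% for Slc25a30. It was 51.2% for Nrep, 50.7% for Wsb1, 41.1% for Snx10 and 35.0% for Coro6. It was lower still for Lrtm2 at 28.8%, Nox4 at 21.2%, Sema3c at 15.5% and Mmd at 1.6%. Thus for Cryl1 and Slc25a30 the low-dose change was close in size to the high-dose change or larger, and Mmd was near its vehicle value.

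**Figure D2:**
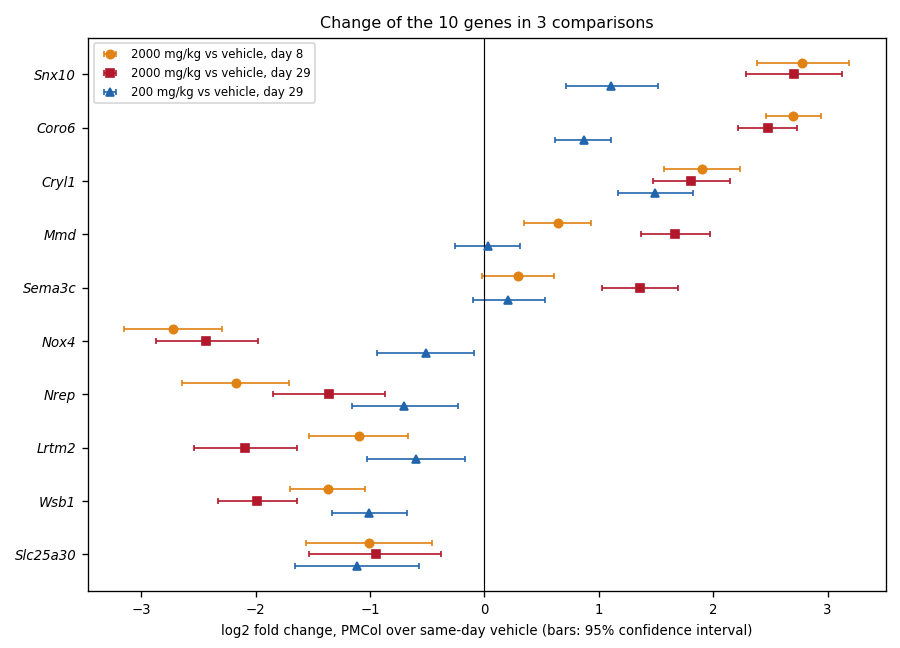
Log2 fold change over same-day vehicle (x axis) of each of the 10 genes (y axis) for 2000 mg/kg at day 8, 2000 mg/kg at day 29 and 200 mg/kg at day 29; bars are 95% confidence intervals. For Cryl1 and Slc25a30 the low-dose point lies near the high-dose points, and for Mmd it lies at 0.03.

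Snx10 encodes a small sorting nexin that is needed for acid secretion by osteoclasts, where it works with the vacuolar proton pump (V-ATPase). Day 8 values were 2.12, 2.55 and 2.67 (lowest, median and highest, as for all 10 genes) with 2000 mg/kg, against -0.66, -0.35 and 0.24 with vehicle. Day 29 values were -1.50, -1.16 and -0.66 with vehicle and -0.83, -0.04 and 0.69 with 200 mg/kg, and the 5 livers given 2000 mg/kg had 1.30, 1.68, 1.45, 1.69 and 1.92. Every liver given 2000 mg/kg lay above every liver of the other groups, and the 200 mg/kg group overlapped with vehicle. The log2 change was 2.78 ± 0.20 (SE) at day 8, a 6.88-fold difference, and 2.71 ± 0.21 at day 29, a 6.55-fold difference. With 200 mg/kg it was 1.11 ± 0.20. Vehicle livers themselves were lower at day 29 than at day 8, by -0.80 ± 0.20, so the day 29 level under 2000 mg/kg, 1.61 ± 0.24 (SD, n = 5), was below that of day 8, 2.48 ± 0.22 (SD, n = 6), without overlap, while the change from same-day vehicle hardly differed (day 29 minus day 8 -0.07, 95% confidence interval -0.66 to 0.51).

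Of 24 other sorting nexins measured, 2 rose and 4 fell with 2000 mg/kg at day 8, and 4 rose and 2 fell at day 29. That is 25.0% past the threshold on each day, near the 23.4% and 26.0% of all genes with a single symbol; their median log2 changes were 0.00 and 0.02, the median of all clusters being 0.00 on both days. Snx11, the closest relative of Snx10 in sequence, fell by 0.54 ± 0.08 (SE, log2) at day 8 (limma, adjusted p = 5.88e-06) and by 0.38 ± 0.08 at day 29 (adjusted p = 0.000884), opposite in sign to Snx10. Its values ran from -0.61 to -0.18 with 2000 mg/kg against 0.00 to 0.37 with vehicle at day 8, and from -0.28 to -0.20 against -0.02 to 0.29 at day 29, so the groups lay apart on both days. Snx24 fell too (-0.53 ± 0.07 at day 8, adjusted p = 1.73e-06), and Snx12 rose by 0.45 ± 0.09 at day 29 (adjusted p = 0.000528).

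Among 21 V-ATPase subunits and accessory proteins, 5 rose and 2 fell at day 8, and 7 rose and 2 fell at day 29 with 2000 mg/kg. The list's share past the threshold was 33.3% and 42.9%, against 23.4% and 26.0% of all genes with a single symbol. Changes within the list were small beside that of Snx10. Atp6v1g1, a subunit of the peripheral stalk, rose by 0.41 ± 0.05 (SE, log2) at day 8 (limma, adjusted p = 1.45e-06), and Atp6v0a1, a membrane-sector subunit, rose by 0.46 ± 0.07 at day 29 (adjusted p = 3.41e-05). Atp6v0b fell by 0.27 ± 0.05 at day 29 (adjusted p = 0.000409). The number that rose at day 8 was 3 without animal 2 of the 2000 mg/kg group or without animal 1, 3, 4, 5 or 6 of its vehicle group, and 8 without animal 1 of the day 29 vehicle group; the number that fell at day 29 was 1 without animal 2, 3, 4 or 5 of the 2000 mg/kg group or animal 2, 3, 4, 5 or 6 of the vehicle group.

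Coro6 encodes a coronin known mainly from muscle. The values at day 8 were 1.88, 2.18 and 2.54 with 2000 mg/kg, against -0.68, -0.53 and -0.38 with vehicle. Those of day 29 were -1.03, -0.91 and -0.50 with vehicle, -0.09, 0.02 and 0.09 with 200 mg/kg, and 1.16, 1.47, 1.55, 2.04 and 1.87 with 2000 mg/kg. At day 29 the 3 doses formed 3 separate bands, and the 200 mg/kg group was the tightest, with an SD of 0.07 (n = 6). Its change on the log2 scale was 2.70 ± 0.12 (SE) at day 8 and 2.48 ± 0.12 at day 29, or 6.50-fold and 5.57-fold, and 0.87 ± 0.12 with 200 mg/kg.

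Of 19 other coronins and actin-turnover genes measured, 3 rose and 4 fell at day 8, or 36.8% against 23.4% of all genes with a single symbol, and 0 rose and 4 fell at day 29, or 21.1% against 26.0%. Coro1c, a widely expressed coronin, fell by 0.43 ± 0.09 (SE, log2) at day 8 (limma, adjusted p = 0.000483); its fall of 0.28 ± 0.09 at day 29 (adjusted p = 0.0275) lost the threshold without animal 2, 3 or 6 of the vehicle group or animal 3 or 5 of the 2000 mg/kg group (highest adjusted p = 0.102). Coro2a rose by 0.33 ± 0.08 at day 8 (adjusted p = 0.00291), and at day 29 its change was 0.11 ± 0.08 (adjusted p = 0.391). Arpc3, a subunit of the ARP2/3 complex that starts actin branches, fell by 0.42 ± 0.10 at day 29 (adjusted p = 0.00172). The number that rose at day 29 was 2 without animal 3 of the 2000 mg/kg group and 1 without animal 1 or 4 of the vehicle group.

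Snx10 and Coro6 had patterns close to each other. Likeness was measured as the root mean square log2 difference over the 29 arrays, 0 for identical patterns. Snx10 and Coro6 differed by 0.42, against 1.45 and 1.30 for their own root mean square distance from their medians. The named gene nearest to both was Asns, asparagine synthetase, at 0.34 from each. Me1, malic enzyme, lay at 0.50 from Snx10 and 0.39 from Coro6, and Gstp1, a glutathione transferase, at 0.39 from Coro6. Asns changed by 2.57 at day 8, 2.69 at day 29 with 2000 mg/kg and 0.96 with 200 mg/kg on the log2 scale, which is the shape of both genes.

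Cryl1 oxidises L-gulonate on the route from glucuronate to xylulose. At day 8 its values were 0.00, 0.47 and 1.17 with 2000 mg/kg, against -1.68, -1.35 and -1.09 with vehicle. At day 29 they were -1.46, -1.31 and -0.82 with vehicle, -0.21, 0.27 and 0.52 with 200 mg/kg, and 0.86, -0.01, 0.72, 0.68 and 0.53 with 2000 mg/kg. All 17 treated livers lay above all 12 vehicle livers, and the 3 treated groups overlapped with each other. On the log2 scale it changed by 1.90 ± 0.16 (SE) at day 8, 1.81 ± 0.17 at day 29 with 2000 mg/kg and 1.49 ± 0.16 with 200 mg/kg, or 3.73-, 3.51- and 2.81-fold. The difference between the doses at day 29 was 0.32, with a 95% confidence interval of -0.02 to 0.66.

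Of 11 other genes of the glucuronate, xylulose and ascorbate pathway, 5 rose and 4 fell at day 8, and 3 rose and 4 fell at day 29 with 2000 mg/kg. The list's share past the threshold was 81.8% and 63.6%, against 23.4% and 26.0% of all genes with a single symbol. The members that rose included Ugdh, which makes UDP-glucuronate, with 0.67 ± 0.07 (SE, log2) at day 8 (limma, adjusted p = 1.31e-07) and 0.61 ± 0.08 at day 29 (adjusted p = 1.15e-06). Akr1a1, which reduces glucuronate to gulonate, rose by 0.26 ± 0.06 (adjusted p = 0.000902) and 0.27 ± 0.06 (adjusted p = 0.00091). The members that fell included both steps from gulonate to ascorbate, Rgn and Gulo. Rgn, gluconolactonase, changed by -1.46 ± 0.16 at day 8 (adjusted p = 8.17e-08) and -0.91 ± 0.17 at day 29 (adjusted p = 0.000145). Gulo, L-gulonolactone oxidase, which makes ascorbate in rats, changed by -0.76 ± 0.06 at day 8 (adjusted p = 2.1e-10), -0.49 ± 0.06 at day 29 with 2000 mg/kg (adjusted p = 1.02e-06) and -0.34 ± 0.06 with 200 mg/kg (adjusted p = 0.00127). Gulo values ran from -0.60 to -0.13 with 2000 mg/kg against 0.29 to 0.45 with vehicle at day 8, and at day 29 from 0.15 to 0.40 with vehicle, -0.10 to 0.06 with 200 mg/kg and -0.27 to -0.11 with 2000 mg/kg. Xylb, xylulose kinase, fell slightly on both days (-0.20 ± 0.05, adjusted p = 0.00293, and -0.23 ± 0.05, adjusted p = 0.00109). The genes nearest to Cryl1 in pattern were Ugt2b1, a UDP-glucuronosyltransferase, at 0.26, Gnai1 at 0.39 and Cyp2b2, a drug-inducible cytochrome P450, at 0.43, against 0.95 for Cryl1 from its own median.

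Mmd encodes a Golgi membrane protein of the PAQR family, first described in maturing macrophages. After 7 doses its values were 0.21, 0.56 and 0.87 with 2000 mg/kg, against -0.18, -0.04 and 0.01 with vehicle. After 28 doses they were -0.22, -0.12 and 0.06 with vehicle, -0.24, -0.07 and 0.05 with 200 mg/kg, and 1.03, 1.52, 1.00, 2.10 and 2.09 with 2000 mg/kg. The 2000 mg/kg livers lay above all others on both days, with day 29 above day 8, while the 200 mg/kg group coincided with vehicle. Its log2 change was 0.64 ± 0.14 (SE) at day 8 and 1.67 ± 0.15 at day 29, a difference of 1.03 ± 0.20, and with 200 mg/kg it was 0.03 (95% confidence interval -0.26 to 0.31). Macrophage markers moved the other way at day 8, as given above, and at day 29 with 2000 mg/kg 1 of 12 rose and 0 fell; their part in the Mmd values was not tested.

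The closest relative of Mmd changed in the opposite direction. Mmd2 values at day 8 ran from -0.40 to -0.20 with 2000 mg/kg, against 0.35 to 1.18 with vehicle, a change of -0.93 ± 0.17 (SE, log2; limma, adjusted p = 0.000148), and at day 29 the change was -0.69 ± 0.18 (adjusted p = 0.00454). Of the 7 PAQR genes measured besides Mmd, 0 rose and 4 fell at day 8, and 1 rose and 3 fell at day 29. The list's share past the threshold was 57.1% on each day, against 23.4% and 26.0% of all genes with a single symbol. Paqr7, a membrane progestin receptor, fell by 0.76 ± 0.12 at day 8 (adjusted p = 4.38e-05) and 0.68 ± 0.13 at day 29 (adjusted p = 0.000298).

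Sema3c encodes a secreted semaphorin that signals through neuropilins and plexin D1. Day 8 values were -0.02, 0.13 and 0.28 with 2000 mg/kg, against -0.34, -0.19 and 0.05 with vehicle, and the groups overlapped. Day 29 values were -0.36, -0.14 and 0.01 with vehicle, -0.25, -0.02 and 0.72 with 200 mg/kg, and 1.06, 0.85, 0.66, 1.72 and 1.80 with 2000 mg/kg. Only animal 6 of the 200 mg/kg group, at 0.72, reached into the range of the 2000 mg/kg group; the next of that group lay at 0.06. The log2 change was 0.29 ± 0.15 (SE) at day 8 (95% confidence interval -0.02 to 0.61) and 1.36 ± 0.16 at day 29, a difference of 1.07 ± 0.22. With 200 mg/kg it was 0.21 ± 0.15.

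Of 10 class 3 semaphorins and receptors measured besides Sema3c, 0 rose and 3 fell at day 8, and 1 rose and 4 fell at day 29, while 7 and 5 did not pass the threshold on those days. Sema3a fell by 0.58 ± 0.10 (SE, log2) at day 29 (limma, adjusted p = 4.93e-05), with values of -0.49 to -0.13 with 2000 mg/kg against 0.03 to 0.57 with vehicle, and Sema3d fell by 0.64 ± 0.12 (adjusted p = 0.00033). The receptors divided. Nrp1 fell by 0.34 ± 0.08 at day 8 (adjusted p = 0.00249) and 0.43 ± 0.08 at day 29 (adjusted p = 0.000356). Nrp2 rose by 0.62 ± 0.11 at day 29 (adjusted p = 6.64e-05), with values of 0.13 to 0.38 with 2000 mg/kg against -0.62 to -0.02 with vehicle, and at day 8 its change was 0.01 ± 0.10 (adjusted p = 0.975). Its vehicle values were lower at day 29 than at day 8, by -0.46 ± 0.10 (adjusted p = 0.0157, lost when only the compared arrays were fitted), and at day 8 they were -0.11 to 0.27. Plxnd1 fell by 0.37 ± 0.10 at day 8 (adjusted p = 0.00619) and changed by -0.22 ± 0.10 at day 29 (adjusted p = 0.122). The number that rose at day 29 was 2 without animal 4 of the 2000 mg/kg group. Stellate cell markers moved with the genes that fell at day 29; their part in this was not tested.

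Mmd and Sema3c lay at a root mean square difference of 0.34 from each other, against 0.74 and 0.58 from their own medians. Sema3c was the second nearest gene to Mmd, while Mmd was not among the 3 nearest to Sema3c. The gene nearest to Mmd was Akr1b10, an aldo-keto reductase, at 0.30, with Isg20 at 0.35, and those nearest to Sema3c were Tox3 and Gna14, each at 0.31, and Cryab, a small heat shock protein, at 0.33. The 5 livers given 2000 mg/kg to day 29 varied together across several of the genes. Animals 1 and 3 had the lowest Mmd values, 1.03 and 1.00, and the Nox4 values closest to vehicle, -1.14 and -1.17. Animals 4 and 5 had the highest Mmd and Sema3c values and, at -2.11 and -2.49, the lowest Nox4 values. Snx10, Coro6 and Nrep also lay farther from vehicle in animals 4 and 5 than in animals 1 and 3. Cryl1, Lrtm2, Wsb1 and Slc25a30 did not show this order. Over all clusters the SD was 0.168 and 0.186 in animals 1 and 3 and 0.213 and 0.236 in animals 4 and 5. That SD does not measure treatment alone, being 0.287 in animal 1 of the day 29 vehicle group. Whether other genes shared the order was not tested.

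Nox4 encodes an oxidase that is active without further activation once its partner p22phox, the product of Cyba, is bound, and it occurs in hepatocytes and stellate cells. The values at day 8 were -2.96, -2.89 and -1.91 with 2000 mg/kg, against -0.48, 0.15 and 0.22 with vehicle. Those of day 29 were 0.09, 0.65 and 1.03 with vehicle, -0.19, 0.09 and 0.55 with 200 mg/kg, and -1.14, -2.05, -1.17, -2.11 and -2.49 with 2000 mg/kg. All 11 livers given 2000 mg/kg lay below all others, and the 200 mg/kg group overlapped with vehicle. Its change on the log2 scale was -2.72 ± 0.21 (SE) at day 8 and -2.43 ± 0.22 at day 29, or 6.58-fold and 5.37-fold lower, and -0.51 ± 0.21 with 200 mg/kg. After quantile normalization of the deposited values the day 8 change was -1.78, still lower. Stellate cell markers fell at day 29 with Nox4, by a median of -0.62 on the log2 scale. Of the 16, 5 fell and 1 rose at day 8, with a median of -0.19. Their part in the Nox4 values was not tested.

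Of 13 other NADPH oxidase genes measured, 0 rose and 3 fell at day 8, and 0 rose and 0 fell at day 29 by limma. That is 23.1% at day 8, near the 23.4% of all genes with a single symbol, and 0.0% against 26.0% at day 29. Those that fell at day 8 were Cyba, Cybb and Rac2, parts of the phagocyte oxidase. Cyba fell by 0.45 ± 0.09 (SE, log2; limma, adjusted p = 0.000265) and Cybb by 1.00 ± 0.29 (adjusted p = 0.014) at day 8, while at day 29 their changes were 0.10 ± 0.09 (adjusted p = 0.51) and 0.17 ± 0.30 (adjusted p = 0.759). Vehicle livers of day 29 were themselves lower than those of day 8, by -0.40 ± 0.09 for Cyba (adjusted p = 0.0141) and -1.32 ± 0.29 for Cybb (adjusted p = 0.0157), calls that were lost when only the compared arrays were fitted. Cybb values ran from -0.52 to 0.25 with 2000 mg/kg against 0.61 to 1.37 with vehicle at day 8. Kupffer cell and macrophage markers fell at day 8 alongside them; their part in this was not tested. The number that fell at day 8 was 5 without animal 2 of the 2000 mg/kg group or animal 5 of the vehicle group, and at day 29 it was 1 without animal 3 of the vehicle group, while 2 rose without animal 2 of that group and 1 without animal 3 of the 200 mg/kg group. The patterns nearest to Nox4 were those of 2 clusters of Acnat2, a peroxisomal acyltransferase, at 0.25 and 0.30, and of Mup5, a major urinary protein, at 0.37, against 1.52 for Nox4 from its own median.

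Nrep (P311) increases the translation of TGF-beta in mouse studies. At day 8 its values were -1.88, -1.57 and -0.57 with 2000 mg/kg, against 0.50, 0.57 and 1.47 with vehicle. At day 29 they were 0.14, 0.75 and 1.01 with vehicle, -0.44, -0.05 and 0.72 with 200 mg/kg, and -0.38, -0.70, -0.47, -0.79 and -1.07 with 2000 mg/kg. The 2000 mg/kg livers lay below vehicle on both days, and the 200 mg/kg group lay between and overlapped with both. On the log2 scale it changed by -2.17 ± 0.23 (SE) at day 8 and -1.36 ± 0.24 at day 29, with a difference of 0.81 (95% confidence interval 0.14 to 1.49) that did not pass the threshold across all clusters, and -0.70 ± 0.23 with 200 mg/kg.

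Of 18 TGF-beta ligands, receptors and targets measured, 1 rose and 6 fell at day 8, and 1 rose and 8 fell at day 29 with 2000 mg/kg. Fn1, fibronectin, which hepatocytes also secrete, fell by 1.01 ± 0.07 (SE, log2) at day 8 (limma, adjusted p = 1.9e-11) and 0.79 ± 0.07 at day 29 (adjusted p = 4.58e-09). The ligand Tgfb3 fell by 0.31 ± 0.08 (adjusted p = 0.00475) and 0.67 ± 0.08 (adjusted p = 5.27e-07). Tgfb1 fell by 0.26 ± 0.06 at day 8 (adjusted p = 0.00235), and at day 29 its change was -0.15 ± 0.06 (adjusted p = 0.0994). Smad7, an inhibitor of the pathway, rose by 0.78 ± 0.16 at day 29 (adjusted p = 0.000725). Col1a1 and Col1a2 stand in this list and among the stellate cell markers, and the part of those cells in the list's change was not tested. The 1 that rose at day 8, Tgif1 (0.45, adjusted p = 0.0278), lost the threshold without animal 1 or 3 of the 2000 mg/kg group or animal 1 or 2 of the vehicle group (highest adjusted p = 0.079). The genes nearest to Nrep in pattern were Oat, ornithine aminotransferase, at 0.35, Rgn at 0.40 and Notum, a secreted Wnt inhibitor, at 0.41, against 0.92 from its own median.

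Lrtm2 encodes a membrane protein with leucine-rich repeats that is studied mainly in the nervous system, and its vehicle values depended on the day more than those of the other 9 genes. After 7 doses its values were -1.93, -0.96 and -0.75 with 2000 mg/kg, against -0.69, -0.08 and 0.60 with vehicle. After 28 doses they were 0.78, 1.23 and 1.57 with vehicle, 0.37, 0.56 and 1.14 with 200 mg/kg, and -0.92, -1.46, -0.23, -0.64 and -1.09 with 2000 mg/kg. Vehicle livers of day 29 lay above those of day 8 without overlap, by 1.31 ± 0.21 (SE, log2), whereas the 2000 mg/kg groups of the 2 days overlapped. The change from same-day vehicle was -1.10 ± 0.21 at day 8 and -2.09 ± 0.22 at day 29. The difference of -0.99 (95% confidence interval -1.61 to -0.37) did not pass the threshold across all clusters. With 200 mg/kg the change was -0.60 ± 0.21. Of 21 other leucine-rich repeat membrane proteins of neurons, 0 rose and 1 fell at day 8, or 4.8% against 23.4% of all genes with a single symbol. At day 29 0 rose and 3 fell, or 14.3% against 26.0%. Among these Lrrn3 fell by 0.55 ± 0.08 at day 29 (limma, adjusted p = 1.44e-05). The number that fell was 2 at day 8 without animal 3 of the vehicle group, and 5 at day 29 without animal 2 or 5 of the vehicle group. The gene nearest to Lrtm2 in pattern was Ust5r, at 0.54, against 0.97 for Lrtm2 from its own median.

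Wsb1 carries WD40 repeats and a SOCS box, through which it brings substrates such as HIPK2 to a cullin 5 ubiquitin ligase. Day 8 values were -1.03, -0.87 and -0.37 with 2000 mg/kg, against 0.22, 0.61 and 0.83 with vehicle. Day 29 values were 0.52, 0.68 and 0.79 with vehicle, -0.89, -0.33 and 0.25 with 200 mg/kg, and -1.04, -0.95, -1.54, -1.63 and -1.37 with 2000 mg/kg. The 3 doses were separate at day 29, with the widest spread at 200 mg/kg (SD 0.48, n = 6). Its log2 change was -1.37 ± 0.16 (SE) at day 8 and -1.99 ± 0.17 at day 29, or 2.58-fold and 3.96-fold lower, and -1.01 ± 0.16 with 200 mg/kg.

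Its paralogue Wsb2 had a change of opposite sign at day 29. Wsb2 rose by 0.39 ± 0.10 (SE, log2; limma, adjusted p = 0.00392), with values of -0.10 to 0.21 with 2000 mg/kg against -0.67 to 0.02 with vehicle, which overlapped, and at day 8 its change was -0.08 ± 0.09 (adjusted p = 0.653). Wsb2 was also lower in vehicle livers of day 29 than in those of day 8, by -0.34 ± 0.09 (adjusted p = 0.0427), a call lost without any one of 9 animals (highest adjusted p = 0.108). Of 30 genes of SOCS-box and cullin 5 ligases, 1 rose and 3 fell at day 8, or 13.3% against 23.4% of all genes with a single symbol. At day 29 6 rose and 3 fell, or 30.0% against 26.0%. Those that fell on both days included Socs2 and Cish, feedback inhibitors of growth hormone and cytokine receptors. Socs2 changed by -2.06 ± 0.33 at day 8 (adjusted p = 2.89e-05) and -2.21 ± 0.34 at day 29 (adjusted p = 1.95e-05), with values of -1.43 to -0.05 with 2000 mg/kg against 0.68 to 1.91 with vehicle at day 8 and of -1.47 to -0.60 against 0.62 to 1.79 at day 29. Spsb4 rose by 1.17 ± 0.19 at day 29 (adjusted p = 3.36e-05). It was also the 1 that rose at day 8 (0.57, adjusted p = 0.0258), but did not pass without animal 5 or 6 of the 2000 mg/kg group or animal 1 or 3 of the vehicle group, while 2 or 3 genes of the list rose there without animal 2 or 3 of the 2000 mg/kg group, animal 2 or 5 of the vehicle group, animal 1 of the 200 mg/kg group or animal 1 or 2 of the day 29 vehicle group. The gene nearest to Wsb1 in pattern was Npas2, a transcription factor of the circadian clock, at 0.30, followed by Gldc at 0.40 and Oat at 0.42, against 0.83 from its own median.

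Slc25a30 (kidney mitochondrial carrier protein 1) had the widest scatter of the 10 genes among livers given 2000 mg/kg to day 8 or 200 mg/kg to day 29. The values at day 8 were -1.13, -0.18 and 0.81 with 2000 mg/kg, against 0.41, 0.86 and 1.14 with vehicle, and the groups overlapped. Those of day 29 were 0.00, 0.16 and 0.35 with vehicle, -1.74, -0.98 and 0.03 with 200 mg/kg, and -0.95, -1.08, -0.10, -1.03 and -0.83 with 2000 mg/kg. The 2000 mg/kg group lay below vehicle at day 29, and the 200 mg/kg group overlapped with both. The log2 change was -1.01 ± 0.27 (SE) at day 8, -0.95 ± 0.28 at day 29 and -1.11 ± 0.27 with 200 mg/kg. The 2 doses differed by 0.16, with a 95% confidence interval of -0.41 to 0.74; after quantile normalization the difference was 0.66, with changes of -0.91 at 2000 mg/kg and -1.57 at 200 mg/kg. Vehicle livers of day 29 lay below those of day 8 without overlap, by -0.64 ± 0.27.

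Of 39 other mitochondrial carriers, 8 rose and 7 fell at day 8, and 9 rose and 6 fell at day 29. The list's share past the threshold was 38.5% on each day, against 23.4% and 26.0% of all genes with a single symbol. Slc25a14, the nearest relative of Slc25a30, had changes of 0.02 ± 0.04 (SE, log2; limma, adjusted p = 0.866) and 0.06 ± 0.04 (adjusted p = 0.419). Slc25a25, an ATP-magnesium and phosphate carrier, changed by -0.83 ± 0.22 at day 8 (adjusted p = 0.00737), -1.73 ± 0.23 at day 29 with 2000 mg/kg (adjusted p = 2.38e-06) and -1.08 ± 0.22 with 200 mg/kg (adjusted p = 0.0056). Slc25a27, an uncoupling-protein relative, rose by 0.47 ± 0.10 at day 8 (adjusted p = 0.00129) and 0.60 ± 0.11 at day 29 (adjusted p = 0.000127). The patterns nearest to Slc25a30 were Angptl4, a lipoprotein lipase inhibitor, at 0.50, Hnf4g at 0.52 and Gpd2 at 0.55, against 0.80 from its own median.

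**Figure D3:**
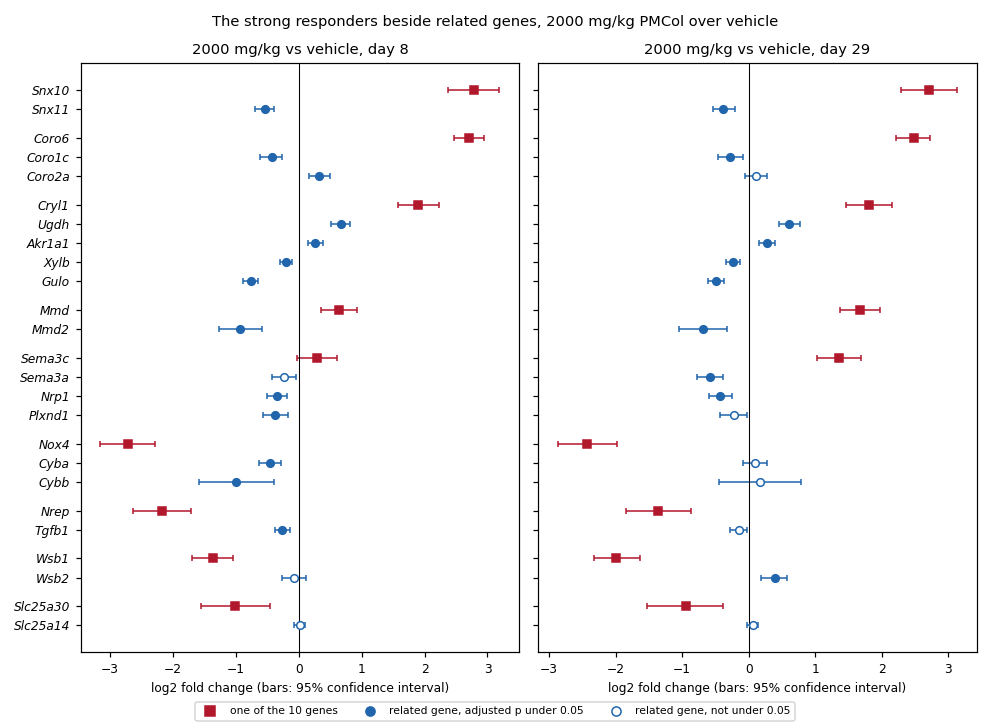
Log2 fold change of 2000 mg/kg PMCol over vehicle (x axis) at day 8 (left) and day 29 (right) for the genes described here (squares, except Lrtm2) and related genes listed under each (circles, filled where adjusted p was under 0.05); bars are 95% confidence intervals. Snx11 and Mmd2 lie left of 0 on both days while Snx10 and Mmd lie right of it, and Wsb2 lies right of 0 at day 29 while Wsb1 lies left.

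Over all 11 lists of related genes, 213 genes were measured. With 2000 mg/kg, 25 rose and 41 fell at day 8, or 31.0% past the threshold against 23.4% of all 14324 genes with a single symbol, and 32 rose and 39 fell at day 29, or 33.3% against 26.0%. By list, the share past the threshold at day 29 ran from 0.0% for the NADPH oxidases and 14.3% for the leucine-rich repeat proteins to 57.1% for the PAQR family and 63.6% for the glucuronate pathway, with 42.9% for the V-ATPase, 9 of 18 genes for the TGF-beta list, 5 of 10 for the semaphorin list, 38.5% for the mitochondrial carriers and 30.0% for the SOCS-box list. At day 8 the share was 4.8% for the leucine-rich repeat proteins, 13.3% for the SOCS-box list, 23.1% for the NADPH oxidases and 30.0% for the semaphorin list. It was 33.3% for the V-ATPase, 38.5% for the mitochondrial carriers, 38.9% for the TGF-beta list, 57.1% for the PAQR family and 81.8% for the glucuronate pathway. With 200 mg/kg, 2 rose and 7 fell, or 4.23% against 3.66%. Slc25a25 and Gulo, given above, were among these, and Slc25a32, a mitochondrial folate and FAD carrier, rose by 0.82 ± 0.18 (SE, log2; limma, adjusted p = 0.0108). 

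Of the 40 nearest annotated genes on the chromosomes, 2 on each side of each gene, 7 were measured under a single symbol. With 2000 mg/kg 1 rose and 2 fell at day 8, or 42.9% against 23.4% of all genes with a single symbol, and 2 rose and 2 fell at day 29, or 57.1% against 26.0%; with 200 mg/kg 0 passed the threshold in limma. Stard4, a sterol carrier next to Nrep, fell by 0.43 ± 0.13 (SE, log2; limma, adjusted p = 0.0179) and 0.69 ± 0.13 (adjusted p = 0.000314), and Ift88, near Cryl1, rose by 0.36 ± 0.08 at day 29 (adjusted p = 0.0019). Adipor2, near Lrtm2, fell by 0.20 at day 29 (adjusted p = 0.00581), and Tpt1, near Slc25a30, rose by 0.16 (adjusted p = 0.00867). Stard4, Ift88 and Adipor2 thus moved in the direction of the gene near them and Tpt1 in the opposite one, each by less than that gene. Of these only Stard4 was directly adjacent, the others each being the second annotated gene on their side. Ssh2 near Coro6, Tyr next to Nox4 and Cog3 near Slc25a30 did not pass the threshold.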

How the data were processed

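RNA of the left liver lobe was measured on 1 Affymetrix whole-transcript array per rat. The authors deposited values, read here as being on the log2 scale, for 27342 transcript clusters and 29 arrays. Per the submitters' processing notes PLIER and MAS5 were used, with versions and settings not given in the sources used here. Each cluster's median over the arrays was 0, so levels are not known. Entries of 7 or more decimals that fall on a coarse binary rounding grid (tolerance 0.1) showed that 7783 clusters had stored log2 values of 8 or more in every array. Gene names came from the platform annotation: 15097 clusters had 1 symbol, 323 several and 11922 none.

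The 5 groups were fitted as 5 means over all 29 arrays with limma 3.58.1 in R 4.3.3, two-sided, with Benjamini-Hochberg adjustment over all clusters at 0.05; folds are 2 to the power of the log2 difference. Where a gene had several clusters, those whose stored values were 8 or higher had priority, and among equals the lowest cluster number. The script was checked on simulated data. The highest correlation between arrays was 0.725, so none was a copy. The labels call the arrays biological replicates; no slide or scan date entered the fit, and the number of arrays limits the precision. The members and lists were chosen with earlier results of these data known. Related genes named are a fixed set of close relatives (Dcxr, Nox1 and Lrtm1 were not measured under a single symbol) and the genes with the largest changes per list; Arpc1b, Slc25a23 and a few others had 2 clusters. Col1a1, Col1a2 and the marker genes Alb, Ttr, Cps1 and Cd14 are named outside that rule. Alternatives were quantile normalization, array centring, single-symbol clusters, the compared arrays alone, trend and robust settings, array weights, a replicate block, higher stored values, a threshold of 0.01 and leaving out each animal.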

Additional observations from a re-analysis of the deposited data

Results flagged for a closer look

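In 4 of 50 group and gene combinations tested, 1 liver lay far from the rest of its group by Dixon's criterion, which chance meets in about 1 of 20. Nox4 was -1.91 in animal 2 given 2000 mg/kg to day 8, the next liver being at -2.84. Sema3c was 0.72 in animal 6 given 200 mg/kg to day 29, with the next at 0.06. Lrtm2 was 1.14 in animal 2 of the same group, with the next at 0.61. Slc25a30 was -0.10 in animal 3 given 2000 mg/kg to day 29, with the next at -0.83.

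The 2000 mg/kg change differed between day 29 and day 8 by 1.07 for Sema3c and 1.03 for Mmd on the log2 scale, differences for which these genes were picked. Among the related genes 5 differed in the same interaction term by limma. Socs3, a cytokine feedback inhibitor, differed by 1.00 (adjusted p = 0.0307), a call lost without animal 5 of the day 29 vehicle group, animal 2 of the day 8 vehicle group or animal 1 given 2000 mg/kg to day 8. The other 4 each lost the call without any one of 10 to 15 animals and had a highest adjusted p of 0.0834 among them. Slc25a23, a calcium-regulated carrier, differed by 0.68 (adjusted p = 0.0331) and Nrp2 by 0.61 (adjusted p = 0.0425), with vehicle livers lower at day 29 than at day 8 by -0.46. Cyba differed by 0.55 (adjusted p = 0.0331), where macrophage markers also differed between days, by a median of 0.95 against 0.01 for all clusters, and vehicle livers were lower at day 29 than at day 8 by -0.40 for Cyba. Slc25a4, the ADP/ATP carrier, differed by -0.37 (adjusted p = 0.0442).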

How the results depend on the processing

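No result past the threshold changed direction under any alternative. With 1 animal left out, 1740 of 1740 member values stayed within 1 SD. Leaving out 1 animal moves a group mean by only a small part of that animal's deviation, and many omissions lay outside the groups compared. That count could therefore hardly have come out otherwise and is no sign of stability. Under other settings 350 of 360 stayed within 1 SD. Of these settings, the trend and robust settings and the compared arrays alone leave the values unchanged by construction. The 10 that moved, all under quantile normalization, included Nox4 (-1.78 at day 8), Coro6 (2.20 and 2.21 with 2000 mg/kg at day 8 and day 29), Slc25a30 (0.66 between doses) and Mmd (1.37 at day 29). In 2 of the 10 the sign also changed, both for a difference between days below the threshold, Nox4 at -0.47 against 0.29 and Coro6 at 0.01 against -0.22; the cause was not tested. Of related-gene values with 1 animal left out, 193 of 5394 lost the threshold and 7 gained it. Counts of clusters past the threshold, which the background percentages rest on, depended more on the setting. Restriction to stored values of 8 or more gave 3243 clusters at day 8 and 3549 at day 29 with 2000 mg/kg, of only 7783 tested. In the main fit it was 5096 and 5910 of 27342, so the share past the threshold was higher among clusters with higher stored values. An adjusted p under 0.01 gave 3244 and 3754, with 277 for 200 mg/kg, 1364 between doses, 28 for the difference between days and 77 between vehicle groups. Fitting only the compared arrays gave 340 for 200 mg/kg and 136 between vehicle groups; the cause was not tested. Quantile normalization gave 102 for the difference between days, and array weights gave 673 there and 1773 between vehicle groups, where animal 1 of the day 29 vehicle group had the lowest weight, 0.282. With 1 animal left out the counts ran from 4400 to 5605 at day 8, 4791 to 6313 at day 29, 436 to 1102 for 200 mg/kg (436 and 451 without animals 5 and 6 of that group), 1755 to 3150 between doses (1755 without animal 5 given 2000 mg/kg), 76 to 563 for the difference between days and 254 to 2141 between vehicle groups; in these last, 10 and 8 animals moved the count by over 1.5 times, the highest count in each being without animal 2 of the day 29 vehicle group. Replicate numbers did not pair the animals, since same-numbered arrays correlated between -0.282 and 0.295 after removal of group means and 3 of 29 correlated best with their own number. With the replicate number as a block the counts were 5008, 5964, 780, 2736, 224 and 799, in the same order of comparisons.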
